A study of Mus musculus with 6 samples.

Results

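The 10 genes described here belong to the circadian clock: Nr1d1, Nr1d2, Arntl (Bmal1), Clock, Per1, Per2, Per3, Cry1, Dbp and Tef. They were selected by name with their values in these libraries already known. All 10 were found by symbol among the 15944 genes of the table, Bmal1 under the symbol Arntl. Levels were measured by bulk RNA sequencing of regulatory T cells (Tregs), which are CD4+ T cells marked by Foxp3, a transcription factor, and which keep immune responses in check. The Tregs were sorted from spleens of C57BL/6 mice by the markers CD3 and CD4, by a red fluorescent reporter of Foxp3 and by a green fluorescent reporter of RORγt, and both groups carry both reporters. RORγt+ Tregs were positive for the green reporter, and CCR6+RORγt- Tregs were negative for it and carried the chemokine receptor CCR6, with 3 libraries in each group. No source used here states the age or sex of the mice, the number of animals behind a library or the time of day at which spleens were taken.

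The clock is a feedback loop of transcription that runs in nearly every cell of the body with a period of about a day. CLOCK and BMAL1 pair on E-box DNA elements and switch on the Per, Cry, Nr1d, Dbp and Tef genes. PER and CRY proteins then hold back CLOCK and BMAL1, while REV-ERBα and REV-ERBβ, the products of Nr1d1 and Nr1d2, repress Arntl and Clock through elements that ROR receptors activate. DBP and TEF act on D-box elements, including those of Per genes. In mouse T cells, RORγt and the REV-ERB proteins share binding elements, and Nr1d1 is known for its expression in Th17 cells, the helper T cells that RORγt specifies.

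Nr1d1 was the member that differed most between the groups, at 366 ± 156 normalized counts in RORγt+ Tregs against 45.6 ± 4.91 normalized counts in CCR6+RORγt- Tregs (SD, n = 3 each), an 8.02-fold difference of means. Arntl and Dbp were also higher in every RORγt+ library than in any CCR6+RORγt- library, by 1.40-fold and 1.51-fold. The other 7 genes had overlapping values, and Per2, Clock and Cry1 varied the most among libraries of a group. The median log2 fold change of the 10 genes was 0.355, beside -0.0109 over all 15944 genes. With 1 library left out it lay between 0.322 and 0.616. It was 0.616 without RORγt+ replicate 3, described below, and 0.541 without CCR6+RORγt- replicate 3. It was 0.322 without CCR6+RORγt- replicate 1 and 0.324 without RORγt+ replicate 1. In the limma fit across all genes, 1 of the 10 passed the adjusted p of 0.05 (Nr1d1, higher) and 9 did not, while 0.564% of all genes passed. Values of 3 of the 10 did not overlap between the groups, against 18.1% of all genes. The genes were chosen by these same values, so neither share is evidence about them, and no p-value is given for a member. In bulk RNA, a change in the number of cells of a kind cannot be told apart from a change in RNA per cell.

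**Figure D1:**
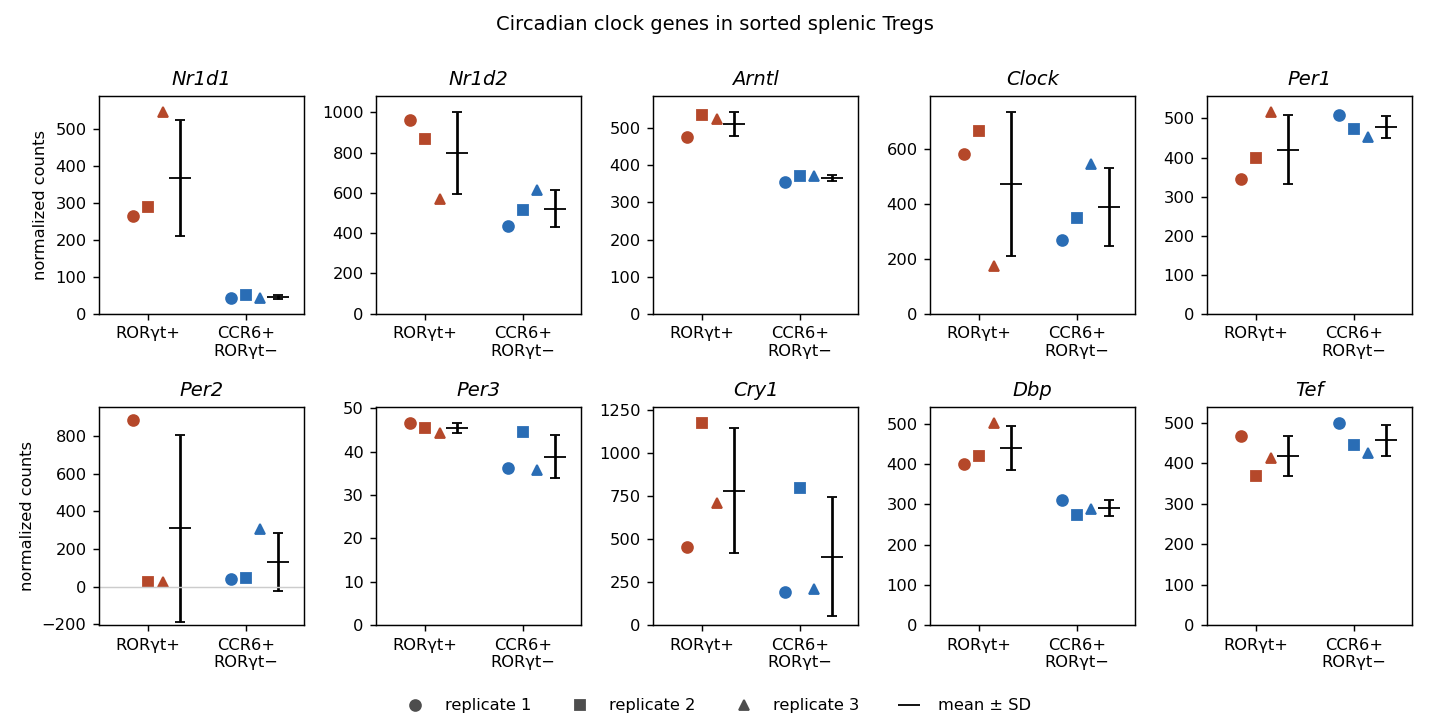
Normalized counts (vertical axes, each from its own scale) of the 10 clock genes in 3 RORγt+ Treg libraries (red, left) and 3 CCR6+RORγt- Treg libraries (blue, right); symbols mark the replicate and black bars the mean ± SD. Nr1d1, Arntl and Dbp have separate groups, and Per2 reaches 883 in a single RORγt+ library while the other 2 of that group are near 24.

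Both groups had the marks of Tregs. Foxp3 lay at 10835 to 12609 normalized counts in RORγt+ libraries and at 9790 to 10187 in CCR6+RORγt- libraries. Log2 fold changes were 0.42 ± 0.14 for Il2ra, 0.50 ± 0.15 for Ctla4, -0.10 ± 0.21 for Cd3e and -0.10 ± 0.18 for Cd4. Ikzf2, at -0.69 ± 0.55, had 6358, 6181 and 1435 normalized counts in RORγt+ Tregs, against 4784, 6205 and 7969 in CCR6+RORγt- Tregs. None of these 6 genes passed in limma. The gene of the sort marker CCR6 lay at 698 to 899.9 normalized counts in RORγt+ libraries and at 112 to 148 in CCR6+RORγt- libraries, although the marker gated the second group only. Of the markers of other cells, 0 of 6 B cell, 0 of 5 CD8 T and NK cell and 0 of 4 measured red cell genes passed the test. The 6 B cell markers summed to 7126 to 10786 normalized counts in RORγt+ libraries and 8299 to 10388 in CCR6+RORγt- libraries, and the red cell genes to 129 to 868 and 53.6 to 4267. Of the 6 myeloid markers, Cd14, Adgre1 and S100a8 had no row, and Lyz2, Csf1r and Itgam summed to 41.3 to 135.7 normalized counts in RORγt+ libraries against 19.8 to 43.0 in CCR6+RORγt- libraries, with 2 of the 3 not overlapping and none past the threshold. Their part in the clock genes' values was not tested.

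RORγt+ replicate 3 stood apart from the other 5 libraries. It had 1247 genes listed at 0, against 438 to 638 in the others. Its depth was put at 9220000 reads, against 10800000 to 14500000. These depths are rough, since they rest on a value of 1 read that many low values did not follow. Relative to each gene's mean over the 6 libraries, its transcripts of at least 6000 bases ran 0.529 lower on the log2 scale than those under 2000 bases. The same difference, long minus short, lay between -0.046 and 0.212 in the other 5 libraries. The fold changes of Nr1d1, Nr1d2, Clock and Per1 and the median of the clock genes are given with and without it. Values of Rora, the levels per kilobase, the list sums and the genes ranked by correlation are given with this library only.

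The promoter windows give the DNA letters of the elements named above. RefSeq windows of GRCm38.p6, from 250 bases before to 50 after a transcription start, were found for 9 of the 10 genes (14 windows), Per2 being the exception. The motifs given below were searched on both strands among 32851 windows of 27025 genes. The E-box CACGTG, bound by CLOCK and BMAL1, was in 7.15% of all windows and in windows of Cry1, Per1 and Tef, and the related CACGTT was in 4.68% and in windows of Cry1 and Nr1d1. The core element of REV-ERB and ROR receptors, AGGTCA, was in 16.3% of all windows and in windows of Arntl, Clock, Nr1d2 and Per1, and its longer form TAGGTCA, which contains it, was in 2.61% and in Arntl. The D-box TTATGTAA, bound by DBP and TEF, was in 0.938% and in Per3, and the D-box TTACGTAA (0.119%) and the cyclic AMP element TGACGTCA (1.79%) were in no member window. The stretches below, 5′ to 3′ on the gene's strand with the motif in capitals, show these elements for Nr1d1 and Arntl, whose groups stood apart, for the 3 genes with CACGTG, and for Per3. AACGTG in Nr1d1 is CACGTT read on the opposite strand.
Nr1d1 (chr11:98775388-98775417, minus strand): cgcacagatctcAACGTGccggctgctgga
Arntl (chr7:113207530-113207559, plus strand): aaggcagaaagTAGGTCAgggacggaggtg
Cry1 (chr10:85185097-85185126, minus strand): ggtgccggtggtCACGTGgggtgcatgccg
Per1 (chr11:69098771-69098800, plus strand): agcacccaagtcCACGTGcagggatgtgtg
Tef (chr15:81802534-81802563, plus strand): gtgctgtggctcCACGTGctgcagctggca
Per3 (chr4:151044808-151044878, minus strand): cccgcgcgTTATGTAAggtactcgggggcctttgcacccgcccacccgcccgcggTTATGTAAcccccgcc
The Per3 stretch holds the D-box 2 times on the same strand, 39 bases apart. The window of Dbp held none of these motifs. A relation of these motifs to the levels or to the differences between groups was not tested. A match is a run of letters and says nothing here of binding, and the absence of a match covers these windows only.

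Among the REV-ERB genes, Nr1d1 (chr11:98767932-98775333, minus strand, GRCm38) had 264, 288 and 545 normalized counts in RORγt+ replicates 1 to 3, against 42.6, 51.3 and 42.9 in the CCR6+RORγt- libraries. Every RORγt+ value was at least 5 times the highest CCR6+RORγt- value, and RORγt+ replicate 3 was the highest of all. The log2 fold change was 2.90 ± 0.31 (SE), and the fold of means was 6.06 without RORγt+ replicate 3. The call was kept without that library and lost when any 1 of the other 5 was left out, fits in which 4 to 10 genes passed in all. The 3' end of Nr1d1 overlaps that of Thra, a thyroid hormone receptor gene on the opposite strand, over 1075 bases, and 7.85% of the 31-base windows of Nr1d1 transcripts also occur in Thra on the opposite strand. No source used here states whether counting used strand. Thra had 415 ± 97.5 normalized counts in RORγt+ Tregs and 296 ± 70.4 in CCR6+RORγt- Tregs, with a log2 fold change of 0.49 ± 0.24 (limma adjusted p = 0.541).

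Nr1d2 (chr14:18204054-18239127, minus strand), the paralog with the same repressor role, had 959, 866 and 568 normalized counts in RORγt+ Tregs, against 433, 517 and 616 in CCR6+RORγt- Tregs. RORγt+ replicates 1 and 2 were above all 3 CCR6+RORγt- libraries, and replicate 3 lay among them. The fold of means was 1.53, and it was 1.75 without RORγt+ replicate 3. The order of the RORγt+ libraries was thus opposite in the 2 REV-ERB genes, with replicate 3 highest in Nr1d1 and lowest in Nr1d2. In Nr1d2, 9.51% of the 31-base windows also occur in a transcript model on the same strand that is not analysed here.

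Of the activators, Arntl (chr7:113207465-113314126, plus strand) had 475, 536 and 525 normalized counts in RORγt+ Tregs, against 355, 369.9 and 371 in CCR6+RORγt- Tregs. The spread within each group was small, with SDs of 32.3 and 8.73 normalized counts, and the groups stood apart. Its log2 fold change was 0.48 ± 0.14 and stayed between 0.43 and 0.54 under 12 other settings of the fit. Clock (chr5:76209868-76304792, minus strand), the partner of BMAL1, had 583, 666 and 174 normalized counts in RORγt+ Tregs, against 270.4, 351 and 548 in CCR6+RORγt- Tregs. The lowest and the highest of the 6 values were both from RORγt+ Tregs. Its log2 fold change was 0.13 ± 0.52, became 0.74 ± 0.29 without RORγt+ replicate 3, and turned to -0.23, -0.13 and -0.11 without RORγt+ replicate 2, RORγt+ replicate 1 and CCR6+RORγt- replicate 1. The longest annotated transcript of Clock, at 9744 bases, is the longest among the 10 genes. After a trend on transcript length was removed from each library, the value was 0.16 ± 0.33.

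**Figure D2:**
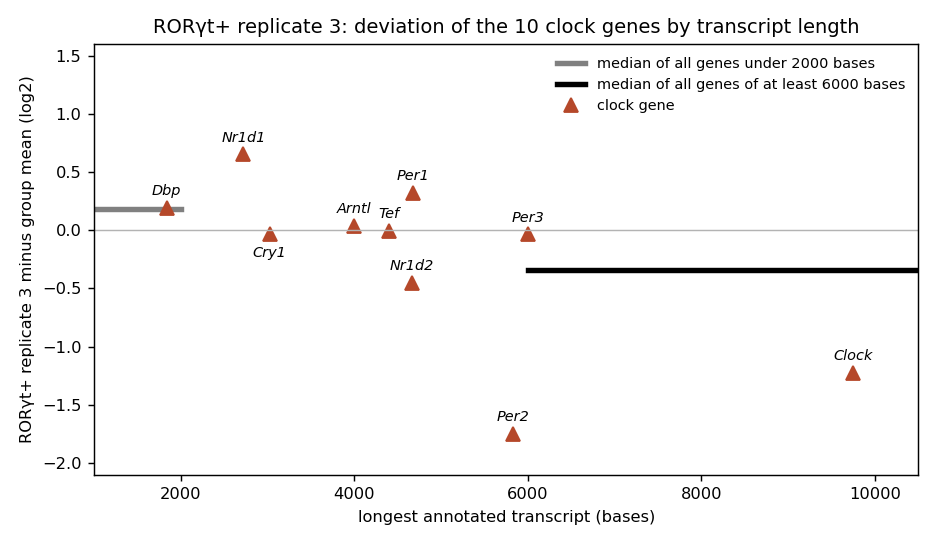
Deviation of RORγt+ replicate 3 from its group mean on the log2 scale (vertical axis) for the 10 clock genes, by the length of the longest annotated transcript (horizontal axis). Bars are medians over genes with a mean of at least 50 that are under 2000 bases (grey, 0.187) and of at least 6000 bases (black, -0.342). The bars are deviations from each gene's mean over the 6 libraries, so bars and points have different baselines. Clock, at 9744 bases, lies at -1.22 and Per3, at 5999 bases, at -0.036. Per1 and Nr1d2, of nearly equal length, lie at 0.319 and -0.454. The part of transcript length in these values was not tested.

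The 3 Per genes, whose products form the repressor with CRY, each behaved differently. Per1 (chr11:69095217-69109960, plus strand) had 346, 398 and 517 normalized counts in RORγt+ Tregs, against 509, 474 and 453 in CCR6+RORγt- Tregs. RORγt+ replicate 3 was the highest of the 6 libraries and the other 2 RORγt+ libraries were the lowest. Its log2 fold change was -0.21 ± 0.18, and the fold of means was 0.777 without RORγt+ replicate 3.

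Per2 (chr1:91415982-91459324, minus strand) had 883, 24.7 and 23.5 normalized counts in RORγt+ Tregs, against 40.0, 45.2 and 305 in CCR6+RORγt- Tregs. A single library in each group was high, RORγt+ replicate 1 and CCR6+RORγt- replicate 3, and the other 4 lay within 23.5 to 45.2. The highest RORγt+ value was 37.5 times the lowest, and the same ratio in CCR6+RORγt- Tregs was 7.62. No other member varied as much within either group. The log2 fold change was -0.02 ± 1.45 with all libraries, -1.73 without RORγt+ replicate 1 and 0.92 without CCR6+RORγt- replicate 3, so no direction can be given. None of the 31-base windows of Per2 occurs in transcripts of another gene.

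Per3 (chr4:151003652-151044665, minus strand) had the lowest mean of the 10 genes, with 46.6, 45.4 and 44.2 normalized counts in RORγt+ Tregs, against 36.2, 44.5 and 35.8 in CCR6+RORγt- Tregs. CCR6+RORγt- replicate 2 lay within the range of the RORγt+ libraries. The log2 fold change was 0.23 ± 0.26. It is the gene whose promoter stretch, printed above, holds the D-box 2 times.

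Cry1 (chr10:85131700-85185064, minus strand), which encodes a repressor of CLOCK and BMAL1, had 455, 1172 and 709 normalized counts in RORγt+ Tregs, against 189, 794 and 207 in CCR6+RORγt- Tregs. The means were 778 ± 364 and 397 ± 344 normalized counts (SD, n = 3 each), a 1.96-fold difference. Replicate 2 was the highest of both groups, and CCR6+RORγt- replicate 2 lay above 2 of the 3 RORγt+ libraries. The log2 fold change was 1.198 ± 0.583 with all libraries and 1.87 without CCR6+RORγt- replicate 2. No 31-base window of Cry1 was shared with another gene.

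Dbp and Tef encode activators of the PAR bZIP family and are direct outputs of CLOCK and BMAL1. Dbp (chr7:45705088-45710203, plus strand) had 399, 420.1 and 502 normalized counts in RORγt+ Tregs, against 311, 272 and 289 in CCR6+RORγt- Tregs. All 3 RORγt+ libraries were above all 3 CCR6+RORγt- libraries, and the log2 fold change of 0.59 ± 0.16 lay between 0.49 and 0.66 under the same 12 settings. In Dbp, 16.9% of the 31-base windows also occur on the opposite strand in Sphk2, a sphingosine kinase gene, which had 381 ± 63.4 normalized counts in RORγt+ Tregs and 387 ± 25.9 in CCR6+RORγt- Tregs (log2 fold change -0.03 ± 0.17, limma adjusted p = 0.975). Tef (chr15:81802421-81826863, plus strand) had 468, 369.6 and 413 normalized counts in RORγt+ Tregs, against 499.6, 444 and 426 in CCR6+RORγt- Tregs. RORγt+ replicate 1 lay between the CCR6+RORγt- values, the other 2 below them, and the log2 fold change was -0.13 ± 0.16. The 2 PAR bZIP genes therefore had fold changes of opposite sign, with separate groups in Dbp only.

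**Figure D3:**
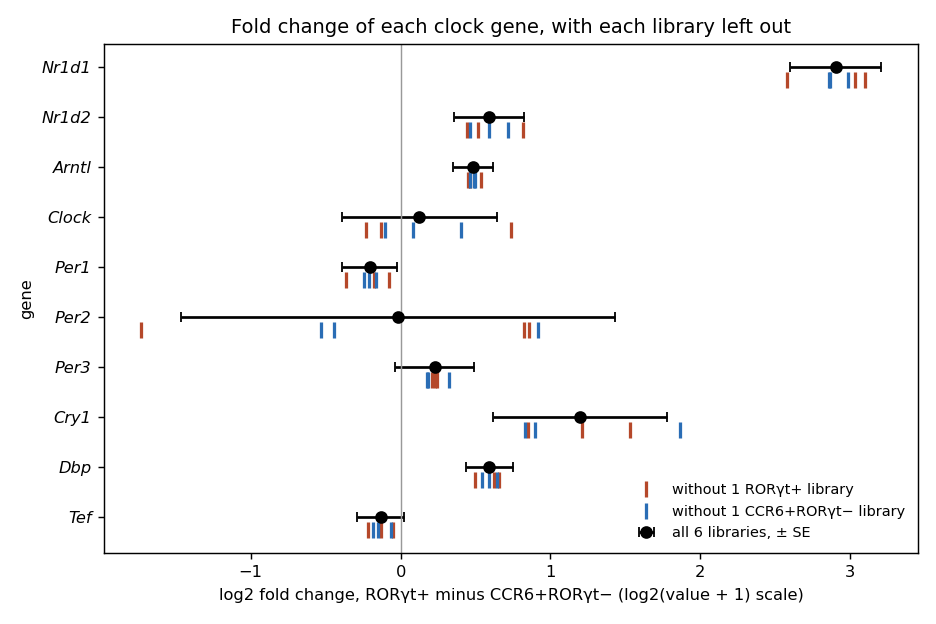
Log2 fold change of each clock gene, RORγt+ minus CCR6+RORγt- Tregs, on the log2(value + 1) scale (black points ± SE, all 6 libraries), with the values obtained when 1 RORγt+ library (red ticks) or 1 CCR6+RORγt- library (blue ticks) was left out. The ticks of Per2 run between -1.73 and 0.92 and those of Clock cross 0, while those of Nr1d1 stay between 2.58 and 3.10.

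**Figure D4:**
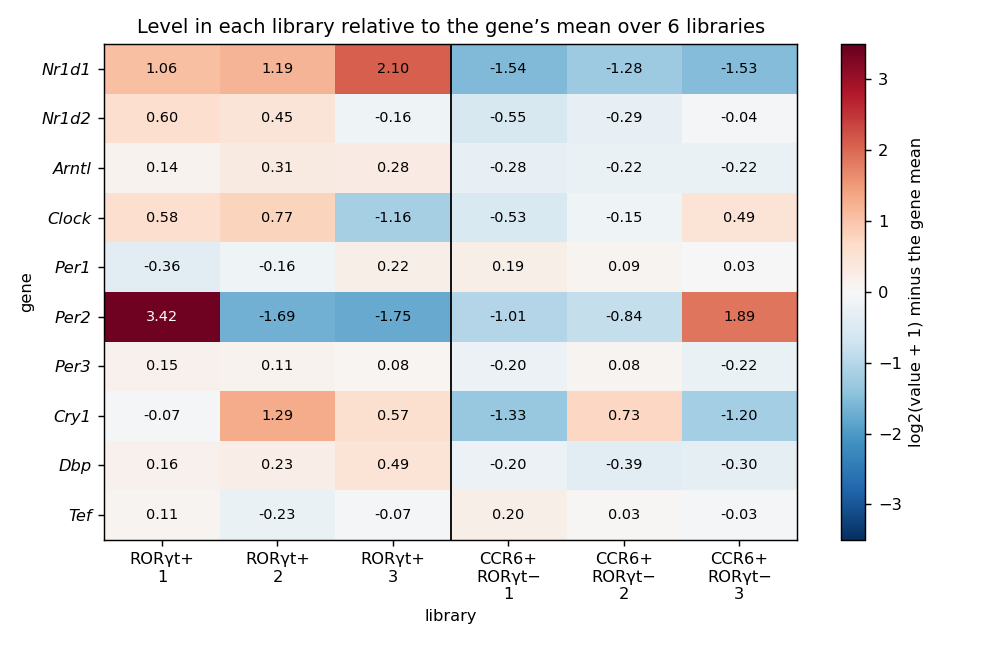
Level of each clock gene (rows) in each library (columns, RORγt+ left, CCR6+RORγt- right) as log2(value + 1) minus the gene's mean over the 6 libraries; red is above and blue below that mean, and the numbers are the plotted values. Nr1d1 is above its mean in all 3 RORγt+ libraries (1.06, 1.19 and 2.10), whereas Per2 is above it in 1 library of each group (3.42 and 1.89).

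Levels were compared between genes per kilobase of the longest annotated transcript. In RORγt+ Tregs the order of the mean levels was Cry1 at 257 ± 120 normalized counts per kilobase, Dbp at 239.8 ± 29.6, Nr1d2 at 171 ± 43.8, Nr1d1 at 134.5 ± 57.3, Arntl at 128 ± 8.08, Tef at 94.7 ± 11.2, Per1 at 90.0 ± 18.8, Per2 at 53.2 ± 85.0, Clock at 48.7 ± 27.0 and Per3 at 7.57 ± 0.196 (SD, n = 3). Each neighbouring pair in that order differed by less than the larger of the pair's SDs, except Dbp and Nr1d2, Arntl and Tef, and Clock and Per3. In CCR6+RORγt- Tregs the order was Dbp at 158 ± 10.7 normalized counts per kilobase, Cry1 at 131 ± 114, Nr1d2 at 112 ± 19.6, Tef at 103.7 ± 8.74, Per1 at 102.5 ± 6.01, Arntl at 91.5 ± 2.19, Clock at 40.0 ± 14.7, Per2 at 22.3 ± 26.0, Nr1d1 at 16.8 ± 1.81 and Per3 at 6.47 ± 0.814 (SD, n = 3). There the pairs apart by more than the larger SD were Per1 and Arntl, Arntl and Clock, and Nr1d1 and Per3. The place of Nr1d1 moved the most between the groups, and Per3 was last in both. With the median transcript length in place of the longest, Cry1 was first and Per3 last in both groups, and other places changed, Cry1 taking the place of Dbp at the top in CCR6+RORγt- Tregs.

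Other genes, called pathway genes here, were taken from 6 lists of textbook knowledge, 72 genes measured in all, some on more than a single list. The lists of the glucocorticoid receptor with its targets and of immediate early and stress genes are not lists of clock genes. They held 3 and 5 of the pooled genes with an unadjusted p under 0.05, with Dusp1 on both. Of these, 0 were higher and 1 was lower in RORγt+ Tregs at an adjusted p of 0.05, and 71 did not pass, where 0.564% of all genes passed. Their median log2 fold change was -0.0336. Groups did not overlap in 19 of the 72, where 18.1% of all genes did not, and 15 had an unadjusted p under 0.05, where 10.9% of all genes did. The gene that passed was Rgs16, a regulator of G protein signalling whose expression cycles in the mouse brain clock. It had 106, 121 and 159 normalized counts in RORγt+ Tregs, against 550.2, 489.8 and 406 in CCR6+RORγt- Tregs, and fell by 1.91 ± 0.21 on the log2 scale (limma adjusted p = 0.0157). Its call was lost when any library other than RORγt+ replicate 3 was left out.

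Of the 10 measured clock factors and repressors outside the members, none passed in limma, 5 had an unadjusted p under 0.05 (10.9% over all genes) and 5 did not overlap between groups (18.1% over all genes), with a median log2 fold change of 0.118. The most abundant were Rora, an activator at the elements the REV-ERB proteins repress, Bhlhe40, a repressor of E-box genes, and Timeless. Rora had 1646, 1988 and 448.5 normalized counts in RORγt+ Tregs, against 429, 667 and 873 in CCR6+RORγt- Tregs (log2 fold change 0.85 ± 0.55, limma adjusted p = 0.666). As in Clock and Nr1d2, RORγt+ replicate 3 was the lowest library of its group. Bhlhe40 had a log2 fold change of -0.55 ± 0.23 (limma adjusted p = 0.458) and Timeless of 0.14 ± 0.15 (limma adjusted p = 0.829). Some genes were picked after their values were seen. Hlf, the third PAR bZIP gene, had 32.3, 121 and 82.7 normalized counts in RORγt+ Tregs, against 6.16, 20.4 and 3.57 in CCR6+RORγt- Tregs, with separate groups and a log2 fold change of 2.98 ± 0.70 (limma adjusted p = 0.171). Npas2, a paralog of Clock, had 25.9, 47.5 and 62.2 normalized counts in RORγt+ Tregs, against 20.4, 10.01 and 9.61 in CCR6+RORγt- Tregs (log2 fold change 1.68 ± 0.47, limma adjusted p = 0.243). Nfil3, a repressor at D-boxes and a target of REV-ERBα in mouse T cells, was at 97.4 ± 4.99 normalized counts in RORγt+ Tregs and 167 ± 40.5 in CCR6+RORγt- Tregs (SD, n = 3 each), with separate groups and a log2 fold change of -0.74 ± 0.23 (limma adjusted p = 0.301). Cry2, the paralog of Cry1, had 138 ± 22.5 normalized counts in RORγt+ Tregs and 198 ± 22.9 in CCR6+RORγt- Tregs, also with separate groups (log2 fold change -0.52 ± 0.20, limma adjusted p = 0.410).

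Log2 fold changes lay between -0.24 and 0.32 for the enzymes that modify PER and CRY proteins, and between -0.37 and 0.17 for the corepressors. Of 16 kinases, phosphatases and ubiquitin enzymes, none passed in limma (0.564% over all genes) and none had an unadjusted p under 0.05 (10.9% over all genes). Groups did not overlap in 1 of them (18.1% over all genes), and the median log2 fold change was 0.0205. With lists this short, a count of 0 is near these shares. Csnk1d, which phosphorylates PER proteins, had a log2 fold change of -0.24 ± 0.15, Csnk2a1 of -0.11 ± 0.16 and Ppp1cb of 0.14 ± 0.19. Of 10 corepressors, likewise none passed in limma, none had an unadjusted p under 0.05 and 1 did not overlap between groups, beside the same shares (median -0.0634). Ncor1, the corepressor that REV-ERB proteins recruit, had a log2 fold change of -0.17 ± 0.23, Nono of -0.09 ± 0.11 and Rack1 of 0.01 ± 0.24.

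Of 16 rhythmic output genes, Rgs16 fell and 15 did not pass (median 0.131), where 0.564% of all genes passed. Groups did not overlap in 5 of the 16 (18.1% over all genes), and 3 had an unadjusted p under 0.05 (10.9% over all genes). Among the 15 were the abundant Tsc22d3 at 0.19 ± 0.25, Gramd4 at -0.08 ± 0.15 and Hnrnpdl at -0.06 ± 0.18 on the log2 scale. Of 10 genes made up of the glucocorticoid receptor, which can induce Per1, and its targets, none passed in limma (median -0.0205). Groups did not overlap in 3 of them (18.1% over all genes), and 3 had an unadjusted p under 0.05 (10.9% over all genes). Those 3, picked after their values were seen, were Sgk1 at 1.34 ± 0.24, Klf9 at -0.78 ± 0.19 and Dusp1 at -0.95 ± 0.19 on the log2 scale. Nr3c1, the receptor, had a log2 fold change of -0.17 ± 0.28 and Il7r of 0.45 ± 0.22. Of 13 immediate early and stress genes, which cell isolation can induce, none passed in limma (median -0.331), and groups did not overlap in 5 (18.1% over all genes). An unadjusted p under 0.05 was found for 5, against 10.9% of all genes. Those 5, Fosb, Dusp1, Egr1, Hspa1a and Hspa1b, all had negative log2 fold changes, of -2.12 ± 0.35, -0.95 ± 0.19, -0.64 ± 0.13, -2.59 ± 0.91 and -2.35 ± 0.88, and Hspa1a and Hspa1b are near-identical copies whose reads may be split between them. Fosb came closest to the threshold (limma adjusted p = 0.0593), with 14.9, 7.87 and 12.9 normalized counts in RORγt+ Tregs, against 52.6, 55.5 and 52.4 in CCR6+RORγt- Tregs; it, Dusp1 and the Hspa1 genes were picked after their values were seen. Junb had a log2 fold change of -0.33 ± 0.16 and Jund of 0.21 ± 0.23 (limma adjusted p = 0.523 and 0.825). The stress list summed to 5365, 5850 and 8843 normalized counts in RORγt+ replicates 1 to 3, against 8546, 7392 and 7679 in CCR6+RORγt- replicates 1 to 3. Per1, itself an immediate early gene, was likewise highest in RORγt+ replicate 3 and lowest in RORγt+ replicate 1. The part of these genes in the Per1 values was not tested.

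**Figure D5:**
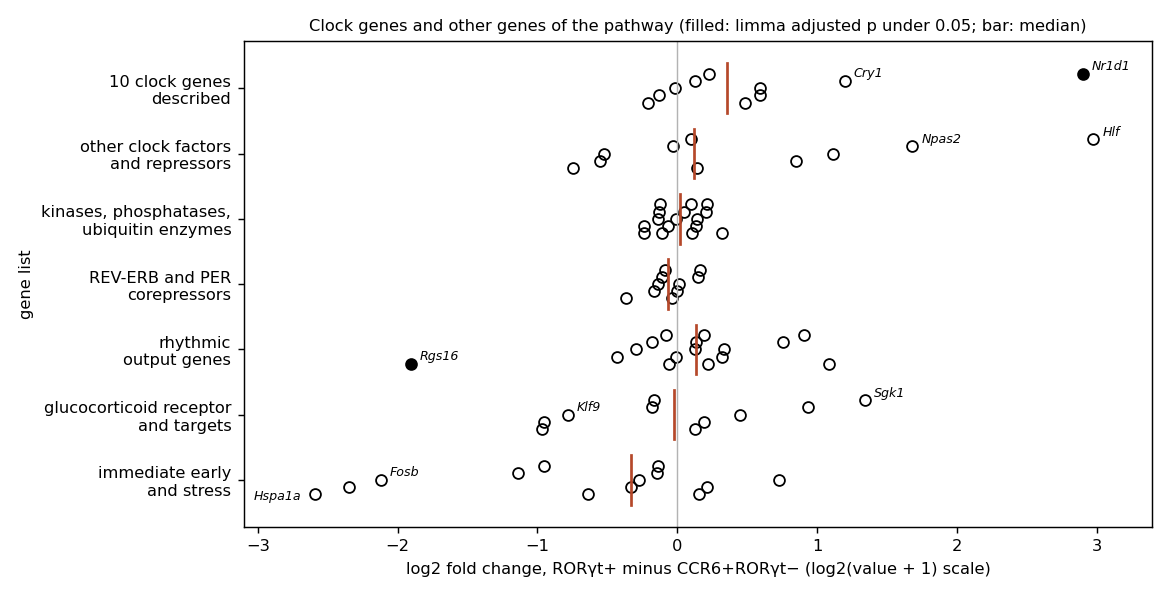
Log2 fold change, RORγt+ minus CCR6+RORγt- Tregs (horizontal axis, log2(value + 1) scale), of the 10 clock genes and of the genes of 6 pathway lists; filled points passed the limma adjusted p of 0.05 and red bars are list medians. Nr1d1 at 2.90 and Rgs16 at -1.91 are the filled points, and the kinases and corepressors lie close to 0.

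Genes whose level followed the mean of Nr1d1, Nr1d2, Dbp, Tef, Per1, Per2 and Per3 were ranked by Pearson's r over the 6 libraries, as a description of libraries that share group and depth. The 5 highest were Slc35d1 (r = 0.988), Psma3 (0.984), Ap5m1 (0.982), Abhd17b (0.981) and Gm10705 (0.979). All 5 were highest in RORγt+ replicate 1, the library in which Per2 was high, and Slc35d1 had 474, 335 and 345 normalized counts in RORγt+ Tregs, against 275, 272 and 309 in CCR6+RORγt- Tregs. For Nr1d1 alone, picked after its values were seen, the gene most like it was Tmem176a, a membrane protein gene, with 143, 147 and 338 normalized counts in RORγt+ Tregs, against 18.7, 24.4 and 18.9 in CCR6+RORγt- Tregs. It shared with Nr1d1 the high RORγt+ replicate 3 and the small spread of the CCR6+RORγt- libraries.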

How the data were processed

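The table deposited by the authors holds 1 value per gene and library, a signal given as normalized counts with 2 decimals, so raw counts were not used. The submitters' processing notes name Salmon 1.2.0, DESeq2 and GRCm38, with no role or order. No source used here states the annotation, strandedness or filters. Reads could not be recovered as whole numbers. The value of 1 read was estimated at 0.821 to 1.242 normalized counts. By that estimate only 51.7% to 68.5% of the values above 0 and under 20 normalized counts lay within 0.1 read of a whole number. Column totals were 11325902 to 11890770 normalized counts. A value near 1 therefore rests on about 1 read.

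Values were analysed as log2(value + 1) without a filter, in limma 3.58.1 (R 4.3.3) with the group as the term, an empirical Bayes trend, two-sided tests and Benjamini-Hochberg adjustment over 15944 genes at 0.05. Fold changes are RORγt+ minus CCR6+RORγt- on that scale, which compresses the changes of low genes. The fit was tested on simulated data. Nothing says that the libraries come from separate animals, and p-values then rest on a spread that may be technical only. Lengths and gene positions came from GENCODE M21 (GRCm38), in which 15851 genes were found, and promoter windows from RefSeq.

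The members and the lists were chosen with earlier results of these data known. Named genes are all members, pathway genes past the threshold, the 3 most abundant of each list, and the 5 genes (mean of at least 50) most like the mean of the 7 members the report lists; others are said to be picked later. Alternatives were pseudocounts of 0.1 and 5, a mean of at least 10, 2 scalings, a replicate block, each library left out, and, added after seeing the data, array weights and a length correction. One gene of the lists is not reported here.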

Additional observations from a re-analysis of the deposited data

How the results depend on the processing

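The direction of 8 of the 10 clock genes held under the 12 other settings of the fit that could move a fold change; the replicate block and the filter on the mean cannot. The sign turned 6 times for Per2 and 3 times for Clock, where -0.23, -0.13 and -0.11 were without RORγt+ replicates 2 and 1 and CCR6+RORγt- replicate 1. Over the settings Cry1 lay between 0.83 and 1.87, Nr1d2 between 0.44 and 0.82, and Per1 between -0.37 and -0.08 on the log2 scale. Leaving out a library gave 0 to 1 clock genes called, 0 to 4 pathway genes called (4 without RORγt+ replicate 3, among them Dusp1 and Egr1, all lower) and 4 to 174 of all genes, against 90 with all libraries; the cause was not tested. Array weights, which gave RORγt+ replicate 3 a weight of 0.199, called 358 of all genes and 7 pathway genes. Apart from Rgs16, those 7 were from the glucocorticoid and stress lists (Dusp1, Egr1, Fosb, Hspa1a, Hspa1b and Sgk1). A pseudocount of 5 called 2 pathway genes, Rgs16 and Fosb. No pairing by replicate number was seen. Deviations of same-numbered libraries correlated at -0.105, -0.022 and -0.184, and each library's highest correlation was with another number. Deviations from a mean of 3 libraries depend on each other, so these correlations cannot exclude a pairing. With the replicate block, 1 gene of all was called, 0 clock genes and 0 pathway genes. In that fit 1130 of all 15944 genes and 11 of the 72 pathway genes had an unadjusted p under 0.05. Per kilobase of the median transcript length, all levels were higher, Cry1 for example at 1707 in RORγt+ and 870.0 in CCR6+RORγt- Tregs.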
